A study of Mus musculus with 4 samples.

Results

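B16F10 melanoma cells were the barcodes of the B16F10 tumor libraries that carried many transcripts of melanocyte pigment genes and few of immune genes. A barcode, the tag of 1 droplet, was chosen by its measured UMIs and counted as a melanoma cell if it had at least 300 genes, at least 500 unique molecular identifiers (UMIs, each standing for 1 captured RNA molecule) and at most 20% mitochondrial UMIs. It also had to hold at least 20 UMIs of Pmel, Mlana, Dct and Tyrp1 together, no UMI of Ptprc or of Cd3d, Cd3e and Cd3g, and at most 10 of C1qa, C1qb and C1qc. This rule was met by 4120 of the 22098 barcodes of good quality in the B16F10 libraries, out of 56088 in all libraries of the series. The wild-type (WT) library gave 2686 cells and the Lrrc25-/- library gave 1434.

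The study placed the mouse melanoma line B16F10 or the mouse colon carcinoma line MC38 in hosts that were WT or Lrrc25-/-, so the deleted gene belongs to the host and not to the implanted tumor cells. B16F10 tumors were taken on day 14 and MC38 tumors on day 26, with no treatment, and 100 mm3 of tumor from each of 3 mice went into 1 pool per group, that is, 1 library for each combination of host and tumor. Per the labels' protocols, cells bound to CD45 beads, which capture leukocytes, were mixed with the unsorted suspension in a ratio of 5 to 1, after removal of erythrocytes, debris and dead cells. B16F10 is an established line derived from a C57BL/6 melanoma, and all cells called here come from that 1 line. With 1 pool per host genotype, differences between pools have no replicate check and no test. The intervals given are exact 95% intervals and cover counting error only.

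Melanoma cells made up 27.4% (26.5% to 28.3%) of good-quality barcodes in the WT and 11.7% (11.1% to 12.2%) in the Lrrc25-/- pool, shares that the bead mixing can itself set. They held 70230778 UMIs in the WT and 36343178 in the Lrrc25-/- pool. The median cell had 26049 UMIs and 4271 genes in the WT pool, against 25427 UMIs and 4312.5 genes in the Lrrc25-/- pool. Shallow cells were more frequent in the Lrrc25-/- pool, where 18.5% of cells had under 5000 UMIs, against 4.02% in the WT pool. The median share of mitochondrial UMIs was 0.273% in WT-pool cells and 1.05% in Lrrc25-/--pool cells. The B16F10 libraries shared 96 barcodes, 1 of which was a melanoma cell in both, and 90 melanoma barcodes also occurred in an MC38 library.

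Melanocytes and pigmented melanomas make melanin inside melanosomes, organelles related to lysosomes. Tyrosinase (Tyr) starts the synthesis from tyrosine, Tyrp1 and Dct act on later intermediates, Pmel builds the fibrils on which melanin is laid down, and Mlana takes part in melanosome maturation. Most of these genes are targets of MITF, a basic helix-loop-helix factor that is the main regulator of the melanocyte lineage and binds E-boxes (CANNTG), among them the form CATGTG. In melanoma, cells can move between a pigmented, MITF-high state and less differentiated states.

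In GENCODE M21 (build GRCm38), Pmel (ENSMUSG00000025359) lies at chr10:128704195-128720238 on the plus strand, Mlana (ENSMUSG00000024806) at chr19:29697824-29708634 on the plus strand, Dct (ENSMUSG00000022129) at chr14:118012790-118052244 on the minus strand and Tyrp1 (ENSMUSG00000005994) at chr4:80834123-80851719 on the plus strand. Mitf lies at chr6:97807052-98021349 and Tyr at chr7:87424771-87493512, on the plus and minus strand. Of genes named in the comparison of pools, Met lies at chr6:17463800-17573980, Ppargc1a at chr5:51454250-51567726, Bnc2 at chr4:84275095-84675275, Oca2 at chr7:56239760-56536518 and Trpm1 at chr7:64153835-64269775.

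The promoters of 5 pigment genes are shown because those genes carry the results on pigmentation that follow. Each sequence runs 5′ to 3′ on the gene's own strand from 250 bases before to 50 bases after the RefSeq start (build GRCm38.p6), and capitals mark every CATGTG on that strand or its reverse complement CACATG. The windows are chr4:80833963-80834262 (plus strand) for Tyrp1, chr7:87493463-87493762 (minus strand) for Tyr and chr14:118052197-118052496 (minus strand) for Dct. Those of Oca2 and Trpm1 are chr7:56239509-56239808 and chr7:64153585-64153884, both on the plus strand.
Tyrp1: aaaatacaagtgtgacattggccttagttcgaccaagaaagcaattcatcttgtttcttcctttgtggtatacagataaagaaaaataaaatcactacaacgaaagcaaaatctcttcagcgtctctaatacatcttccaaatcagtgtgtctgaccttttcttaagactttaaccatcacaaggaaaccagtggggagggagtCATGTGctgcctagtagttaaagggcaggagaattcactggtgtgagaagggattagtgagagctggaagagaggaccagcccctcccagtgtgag
Tyr: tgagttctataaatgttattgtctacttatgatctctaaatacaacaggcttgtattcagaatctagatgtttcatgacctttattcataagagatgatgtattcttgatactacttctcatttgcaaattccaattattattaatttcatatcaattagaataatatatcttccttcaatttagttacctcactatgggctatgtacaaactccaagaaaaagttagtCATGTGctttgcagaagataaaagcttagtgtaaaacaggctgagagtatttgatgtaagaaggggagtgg
Dct: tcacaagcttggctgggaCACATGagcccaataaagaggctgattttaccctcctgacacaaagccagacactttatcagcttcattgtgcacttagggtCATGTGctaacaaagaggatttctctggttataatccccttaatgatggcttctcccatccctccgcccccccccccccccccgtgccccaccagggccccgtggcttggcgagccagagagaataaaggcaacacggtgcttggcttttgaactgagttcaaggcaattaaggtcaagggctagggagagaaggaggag
Oca2: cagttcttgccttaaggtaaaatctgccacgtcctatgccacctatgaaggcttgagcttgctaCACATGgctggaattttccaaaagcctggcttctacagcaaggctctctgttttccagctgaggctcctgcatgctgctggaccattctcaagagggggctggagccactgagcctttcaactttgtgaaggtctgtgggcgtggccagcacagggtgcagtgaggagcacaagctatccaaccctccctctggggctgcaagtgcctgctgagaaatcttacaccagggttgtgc
Trpm1: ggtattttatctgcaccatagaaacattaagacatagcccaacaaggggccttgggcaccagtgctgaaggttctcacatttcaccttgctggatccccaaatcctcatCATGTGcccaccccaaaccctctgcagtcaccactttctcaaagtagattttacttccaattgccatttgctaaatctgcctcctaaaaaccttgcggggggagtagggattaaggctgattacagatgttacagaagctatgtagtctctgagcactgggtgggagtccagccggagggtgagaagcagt

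RefSeq promoters were given for 11 of the genes among the 4 markers and the 12 listed melanosome genes, and 7 of these 11 (63.6%) held the motif. Among the measured genes described further on that had a promoter, it was present in 365 of 3725 (9.80%), and among all genes with a promoter in 4293 of 27025 (15.9%). The motif began 46 bases before the start in Tyrp1, 21 before it in Tyr and 186 before it in Oca2. The Trpm1 window shown held it 141 bases before the start, and Dct held it at 232 and at 150 bases before. Mitf and Met did not have these letters in their windows. A match describes the sequence and is not evidence of a bound site.

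The label was checked against levels in the same libraries. Levels are given as CPM, the UMIs of a gene over all melanoma cells of a pool per 1e6 UMIs of those cells. As a background, the same values were taken in macrophage-range barcodes (at least 20 C1q UMIs and 1 Ptprc UMI; 2034 in the WT and 2387 in the Lrrc25-/- pool), in which pigment genes are read as background. The 4 markers chose the cells, so their levels are a description. Together they stood at 11340 CPM in WT-pool and 14558 CPM in Lrrc25-/--pool melanoma cells, against 1107 and 589 CPM in macrophage-range barcodes, so pigment transcripts were also found outside melanoma cells. No barcode of either MC38 library met the rule, with an exact upper bound on the share of 0.0213% in the WT and 0.0221% in the Lrrc25-/- pool, and the highest marker sum in an MC38 barcode was 1 UMI in the WT and 2 UMIs in the Lrrc25-/- pool.

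The cut at 20 marker UMIs fell among shallow barcodes. In the WT pool 33 cells lay just inside it (20 to 24 UMIs, median depth 2580 UMIs) and 46 barcodes just outside (15 to 19 UMIs, median depth 1897.5). In the Lrrc25-/- pool 78 lay just inside (median depth 2131) and 119 just outside (median depth 1574). The 4 genes took a like share of UMIs on both sides, with medians of 0.853% inside and 0.858% outside in the WT pool and of 1.05% and 1.01% in the Lrrc25-/- pool.

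Most markers of other cell types were low in the melanoma cells. The 11 macrophage markers summed to 1274 CPM in the WT and 1285 CPM in the Lrrc25-/- pool, against 28726 and 31586 CPM in macrophage-range barcodes, and Apoe, a lipid carrier that melanoma cells also make, gave 924 and 870 CPM of it. The 7 T cell markers summed to 2.49 and 4.29 CPM, with the Cd3 genes at 0 by the rule. The 6 neutrophil markers summed to 17.1 and 36.6 CPM, the 7 fibroblast markers to 16.2 and 16.9 CPM and the 5 keratinocyte markers, with Krt5 at 0 UMIs in both pools, to 0.0712 and 0.138 CPM. Marker sums for NK cells, B cells and erythroid cells lay under 20 CPM in both pools. Lists for 3 other types were carried by genes that neural crest or tumor cells use. Mbp and S100b gave most of the Schwann cell sum (385 and 366 CPM), which was at a like level in macrophage-range barcodes (439 and 326 CPM). Egfl7 gave most of the endothelial sum (75.4 and 62.0 CPM), and Fscn1 most of the dendritic cell sum (129 and 116 CPM). Both of these sums were lower in macrophage-range barcodes. The share of melanoma cells without any C1q UMI was 9.79% in the WT and 12.8% in the Lrrc25-/- pool, so most of them held some C1q transcripts.

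Lrrc25, a leucine-rich repeat membrane protein of myeloid cells, was at 146 CPM in macrophage-range barcodes of the WT pool and at 4.52 CPM in those of the Lrrc25-/- pool. In the melanoma cells it was at 2.42 CPM (2.07 to 2.81) in the WT pool, from 170 UMIs, and at 0.413 CPM (0.231 to 0.681) in the Lrrc25-/- pool, from 15 UMIs. Melanoma cells therefore held far less of it than macrophage-range barcodes of the WT pool.

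Other features of the line were visible in both pools. B16 melanoma is known to have lost the cell cycle inhibitor locus Cdkn2a, and 2 UMIs of Cdkn2a were found in the WT and 0 in the Lrrc25-/- pool, an upper bound of 0.102 CPM there. The 5 sex-linked genes, of which 4 lie on the Y chromosome, summed to 1.68 and 2.75 CPM in melanoma cells against 72.3 and 81.9 CPM in macrophage-range barcodes. Sox10, a neural crest factor needed for the melanocyte lineage, was at 136 and 133 CPM, and Pax3, which acts beside it, at 86.0 and 121 CPM. Genes known from dedifferentiated melanoma, a list of 20 of which 6 reached the level counted as measured below, stood at very different levels. The cytoskeletal gene Vim was at 2591 and 2280 CPM, the matrix protein gene Sparc at 381 and 468 CPM and the hyaluronan receptor gene Cd44 at 195 and 227 CPM. Macrophage-range barcodes held more Vim, at 3169 and 2732 CPM, and more Cd44, at 304 and 391 CPM. Ngfr and Sox2 had 0 UMIs in both pools, Wnt5a had 1 and 0 UMIs, and Axl, a receptor tyrosine kinase, was at 3.96 and 5.37 CPM. The receptors Kit (2.18 and 3.96 CPM) and Ednrb (0.797 and 0.770 CPM) were low. By these levels the cells of both pools expressed Sox10, while their pigment transcripts were required by the rule that chose them.

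**Figure D1:**
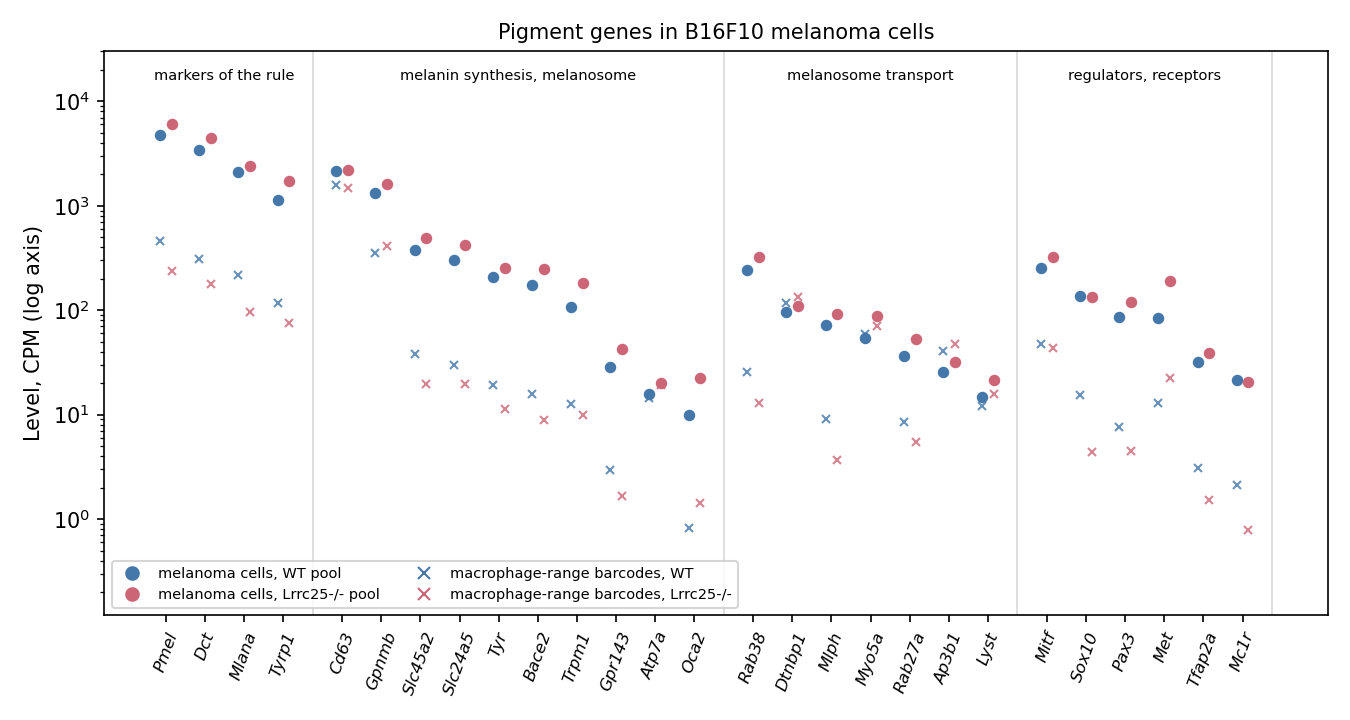
Levels of pigment genes in CPM (log axis) in melanoma cells of the WT (blue circles) and Lrrc25-/- pool (red circles), with exact 95% Poisson bars mostly smaller than the circles, and in macrophage-range barcodes (crosses). Red circles lie above blue ones for all 4 markers and all 10 melanosome genes, while the crosses of the 4 markers lie lower in the Lrrc25-/- than in the WT pool.

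Pigment genes stood higher in melanoma cells of the Lrrc25-/- pool than in those of the WT pool, on a scale of fold values mostly under 1.5. A gene was counted as measured with a CPM of 20 or more in either pool and at least 50 UMIs in all, and as higher or lower past a 1.5-fold difference in CPM after adding 1 CPM to both. Of 4584 measured genes, 99 were higher in the Lrrc25-/- pool (2.16% of genes) and 12 were lower (0.262%), 2.42% in either direction. The median log2 fold (Lrrc25-/- over WT) of all measured genes was 0.01, with quartiles at -0.10 and 0.15. Scaling by edgeR's trimmed mean of M values (TMM) in place of totals moved that median to -0.10. The counts depend on the setting, with 65 genes higher and 23 lower after TMM scaling, 232 higher and 15 lower by mean per-cell CPM, and 386 higher and 99 lower among cells without a C1q UMI.

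Of the 12 listed genes for melanin synthesis and the melanosome, 10 were measured, 2 of them were called higher and none lower, and their median log2 fold was 0.44 against 0.01 over all genes. All 10 had a fold above 0, but Cd63 stood at 0.01 and lay below 0 after TMM scaling, which put the list's median at 0.37. Oca2, a melanosome anion channel that sets its pH, was at 9.97 CPM (9.24 to 10.7) in the WT and 22.6 CPM (21.1 to 24.2) in the Lrrc25-/- pool. Trpm1, a cation channel made by melanocytes, was at 106 CPM (104 to 109) in the WT and 181 CPM (177 to 186) in the Lrrc25-/- pool. Counting error is small beside both differences, and both were called. The exchanger Slc24a5, which supplies calcium to the melanosome, was at 301 and 420 CPM, and the transporter Slc45a2, needed for melanosome pH, at 377 and 494 CPM. Tyr itself was at 209 and 254 CPM. Gpnmb, a melanosome glycoprotein that macrophages also make, was at 1325 and 1633 CPM. None of these 4 passed 1.5-fold.

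Among the markers of the rule, Tyrp1 passed 1.5-fold, at 1127 CPM in the WT and 1722 CPM in the Lrrc25-/- pool, a log2 fold of 0.61. It was not called after TMM scaling (0.50), thinning (0.58) or among cells without a C1q UMI (0.52). Pmel was at 4728 and 6028 CPM, Dct at 3399 and 4428 CPM, and Mlana at 2086 and 2380.5 CPM. In macrophage-range barcodes the 4 genes went the other way, for instance Pmel at 458 CPM in the WT and 238 CPM in the Lrrc25-/- pool. A minimum of 20 marker UMIs keeps a shallow cell only if its pigment share is high. With at least 10000 UMIs per cell, which left 2394 WT-pool and 1057 Lrrc25-/--pool cells, the median log2 fold of the 4 markers was 0.38, against 0.37 over all cells, and that of the melanosome genes 0.49.

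Of 13 listed genes for the assembly and transport of melanosomes, 7 were measured and 1 was called, beside 2.42% of all measured genes. Their median log2 fold was 0.40. The list summed to 613 CPM in the WT and 792 CPM in the Lrrc25-/- pool. Other cells differed the same way, with 362 and 390 CPM in macrophage-range barcodes. In T cell-range barcodes (at least 2 Cd3 UMIs and at most 10 C1q UMIs) it was at 289 and 359 CPM. Myo5a, the myosin that carries melanosomes along actin, was at 54.6 CPM in the WT and 87.4 CPM in the Lrrc25-/- pool. Its log2 fold was 0.67, and the call was lost after TMM scaling (0.56) and among cells with at most 1% mitochondrial UMIs (0.54). Its partners Rab27a and Mlph, which tie the melanosome to that motor, were at 36.3 and 53.3 CPM and at 72.3 and 91.2 CPM, and Rab38, which sorts pigment enzymes, at 243 and 320 CPM. Of 10 listed regulators and receptors 6 were measured, again with 1 called, and a median of 0.31. That list summed to 622 and 834 CPM in melanoma cells. It was at 187 and 223 CPM in T cell-range barcodes but at 144 and 136 CPM in macrophage-range barcodes. Mitf was at 254 CPM in the WT and 322 CPM in the Lrrc25-/- pool, under 1.5-fold. The hepatocyte growth factor receptor Met, a known MITF target in melanocytes, was at 84.0 CPM (81.9 to 86.2) and 189 CPM (184 to 193), a log2 fold of 1.16. Sox10 and the melanocortin receptor Mc1r, at 21.3 and 20.4 CPM, had folds just under 0.

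To describe states within each pool, every cell was thinned at random to 5000 UMIs and shallower cells were left out, which kept 2578 WT-pool and 1168 Lrrc25-/--pool cells. Cells were ranked by the share of their UMIs that fell on a gene list, and a high group of the 644 top cells was set against a low group of the 644 bottom cells in the WT pool, and 292 against 292 cells in the Lrrc25-/- pool. All cells of a pool come from 1 library and all shares of a cell add up to 1 total, so a list can be low because another is high. Relations between lists are descriptions without a test.

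**Figure D2:**
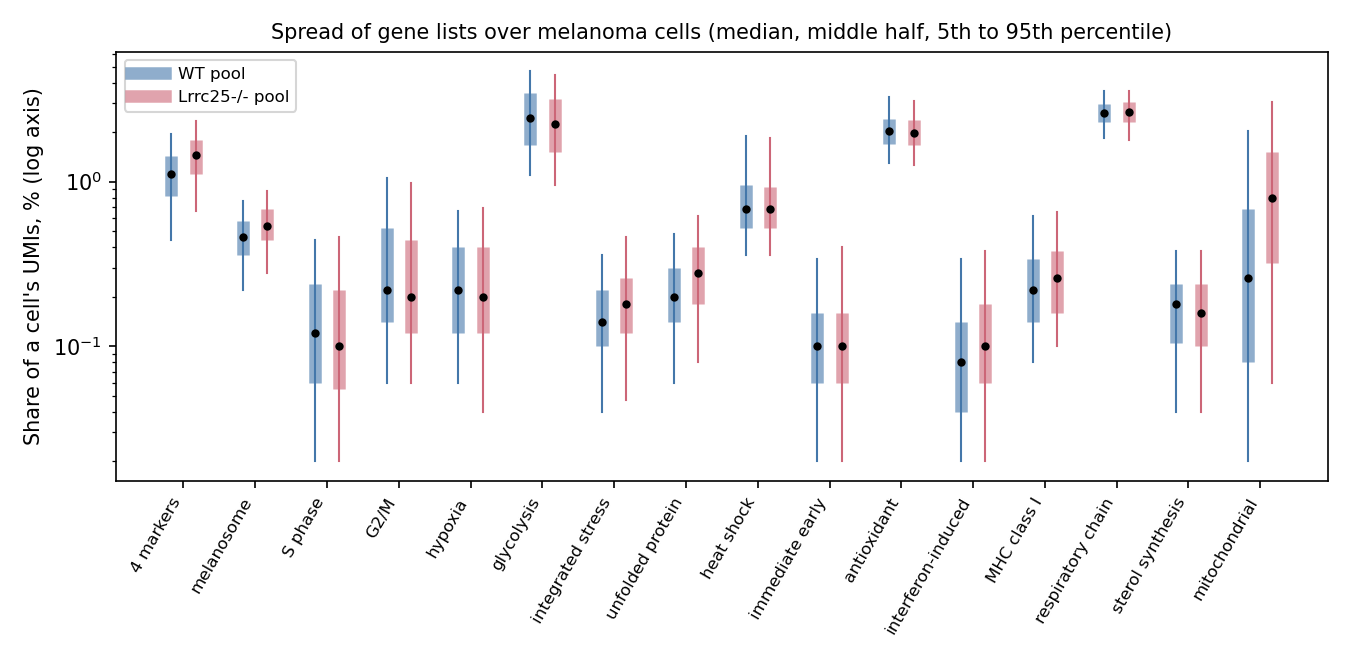
Share of a melanoma cell's UMIs on each of 16 gene lists (log axis) after thinning to 5000 UMIs, in the WT (blue) and Lrrc25-/- pool (red), with the median (point), the 25th to 75th percentile (thick bar) and the 5th to 95th percentile (thin line). The mitochondrial list spread most widely, from 0.02% to 2.04% in the WT pool, and was shifted upward in the Lrrc25-/- pool.

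Pigment transcripts varied between the chosen cells. The rule removed cells with few of them and used Pmel itself, so the values describe the range among chosen cells. After thinning, Pmel had a median of 23 UMIs per cell in the WT pool (4 at the 5th and 49 at the 95th percentile) and of 29 UMIs (8 and 56) in the Lrrc25-/- pool. Tyr was seen in 62.0% of WT-pool and 69.9% of Lrrc25-/--pool melanoma cells, against 4.97% and 2.84% of thinned macrophage-range barcodes. Met was seen in 30.4% and 55.7% of melanoma cells, against 4.43% and 8.62% of macrophage-range barcodes. The median cell gave 0.46% of its UMIs to the melanosome list in the WT and 0.54% in the Lrrc25-/- pool, and the 5th to 95th percentiles ran from 0.22% to 0.763% and from 0.28% to 0.88%.

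Cells high in the melanosome list held more of the 4 marker genes, which are not in that list. Pmel was at 2887 CPM in the low group and 6869 CPM in the high group of the WT pool, and at 4099 and 8018 CPM in the Lrrc25-/- pool. Dct differed less, by ratios of 1.40 (1.37 to 1.44) and 1.43 (1.38 to 1.48). Mitf itself was close between the groups, at 261 and 296 CPM in the WT and at 330 and 365 CPM in the Lrrc25-/- pool. Several genes outside the pigment lists went along. Mgll, the lipase that breaks down monoacylglycerol, was at 77.6 and 490.4 CPM in the WT and at 208 and 903 CPM in the Lrrc25-/- pool. The glutathione transferase Gsta2 was at 85.4 and 324 CPM and at 152 and 429 CPM, and the prostaglandin D synthase Ptgds at 1399 and 2676 CPM and at 1205 and 2956 CPM. Met was at 48.1 and 136 CPM in the WT and at 121 and 305 CPM in the Lrrc25-/- pool. Met and Mgll were therefore higher both in pigment-rich cells of each pool and in the Lrrc25-/- pool as a whole, where Mgll was at 490 CPM against 234 CPM in the WT pool.

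Pigment-rich cells held fewer transcripts of mitosis genes. The G2/M list stood at 4590 CPM in the low group and 2648 CPM in the high group by melanosome genes in the WT pool, and at 4164 and 2261 CPM in the Lrrc25-/- pool, log2 ratios of -0.79 and -0.88. Over cells, Spearman's rho between the lists was -0.25 (n = 2578) and -0.23 (n = 1168), a weak relation. Top2a, which untangles chromosomes, was at 103 and 40.4 CPM in the WT and at 91.1 and 31.5 CPM in the Lrrc25-/- pool, and the mitotic ubiquitin enzyme Ube2c at 336 and 135 CPM and at 266 and 101 CPM. The p53 target Cdkn1a, an inhibitor of cyclin-dependent kinases, was also lower in pigment-rich cells, at 333 and 181 CPM in the WT and at 182 and 111 CPM in the Lrrc25-/- pool. Low pigment thus went with higher levels of genes that drive division and of this inhibitor.

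Phase was called from scores of S and G2/M genes in the thinned cells. In the WT pool 30.0% (28.2% to 31.8%) of cells were placed in S phase and 23.2% (21.5% to 24.8%) in G2/M. In the Lrrc25-/- pool the shares were 26.3% (23.8% to 28.9%) and 20.03% (17.8% to 22.4%). Of the cells, 53.8% in the WT and 49.0% in the Lrrc25-/- pool lay within 0.05 score units of a cut, so these calls divide a continuous range.

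Between pools, none of the 25 measured S-phase genes and none of the 33 measured G2/M genes passed 1.5-fold in either direction, beside 2.42% of all measured genes. The median log2 fold was -0.05 for the S-phase list and -0.18 for the G2/M list, where 28 of 33 genes lay below 0. Cdk1, the kinase that starts mitosis, was at 189 CPM in the WT and 149 CPM in the Lrrc25-/- pool, and Ube2c at 298 and 218 CPM. Mki67, a general marker of cycling cells, was at 27.8 and 27.9 CPM. The G2/M list was also lower in macrophage-range barcodes of the Lrrc25-/- pool, at 2371 against 3060 CPM, and the part of RNA shared between droplets in either value was not tested.

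G1 cells held more pigment, hypoxia and glycolysis transcripts than cycling cells in both pools. The melanosome list was at 5153 CPM in G1 and 4129 CPM in G2/M cells of the WT pool, and at 5952 and 4797 CPM in the Lrrc25-/- pool. The hypoxia list was at 3208 CPM in G1 and 2150 CPM in S-phase cells of the WT pool, and at 3076 and 2086 CPM in the Lrrc25-/- pool. Among the genes lowest in cells high in the G2/M list were those for the aldolase Aldoc, the carbonic anhydrase Car9, the calcium-binding protein S100b, and Ccnd2, a G1 cyclin. Ccnd2 was at 295 CPM in the low and 120 CPM in the high group of the WT pool, and at 240 and 123 CPM in the Lrrc25-/- pool.

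Cells high in hypoxia genes were also high in glycolysis genes. HIF transcription factors are stabilised at low oxygen and raise genes for glycolysis, pH control and mitophagy. Of the 18 listed hypoxia genes, 16 were measured. Cells in the high group by these genes held 39308 CPM of glycolysis genes against 15906 CPM in the low group of the WT pool, and 36760 against 14251 CPM in the Lrrc25-/- pool. The log2 ratios were 1.31 and 1.37, and rho over cells was 0.80 and 0.81.

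The mitophagy receptor Bnip3 was at 35.4 and 653 CPM in the low and high group of the WT pool, and at 28.1 and 621 CPM in the Lrrc25-/- pool, but as a list member it helped to choose those cells. Genes outside the list showed the same order. Ero1l, the oxidase that forms disulfide bonds in the endoplasmic reticulum (ER), was at 61.5 and 440.7 CPM in the WT and at 56.2 and 458 CPM in the Lrrc25-/- pool. The selenium-binding protein Selenbp1 was at 31.4 and 347 CPM and at 37.0 and 284 CPM. Espn, an actin-bundling protein, was at 15.2 and 246 CPM and at 21.9 and 211 CPM. The metallothionein Mt1 was at 3108 and 7246 CPM and at 3141 and 6519 CPM. All of these genes were higher in the high group of both pools, with larger ratios for Selenbp1 and Espn in the WT pool.

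Hypoxia-high cells held fewer S-phase transcripts, with log2 ratios of -0.88 in the WT and -0.69 in the Lrrc25-/- pool, and fewer heat shock transcripts, with -0.52 and -0.68. The unfolded protein list was lower as well, with -0.69 and -0.52. Summed over each list, pigment transcripts hardly followed hypoxia. The melanosome list differed by -0.08 in the WT and -0.12 in the Lrrc25-/- pool, and the 4 markers by -0.03 and -0.07. Within the pigment genes the relation was mixed, since Mlana was at 2337 and 1676 CPM and Trpm1 at 135 and 72.0 CPM, while Tyrp1 was at 1057 and 1299 CPM in the WT pool. The same held in the Lrrc25-/- pool, where Mlana was at 2663 and 1941 CPM and Tyrp1 at 1616 and 1817 CPM. Tyr, Slc45a2, Slc24a5, Gpr143 and Oca2 were also lower in the high group of both pools. Slc24a5, for instance, was at 342 and 228 CPM in the WT and at 467 and 338 CPM in the Lrrc25-/- pool. Dct, like Tyrp1, was higher there in both pools.

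**Figure D3:**
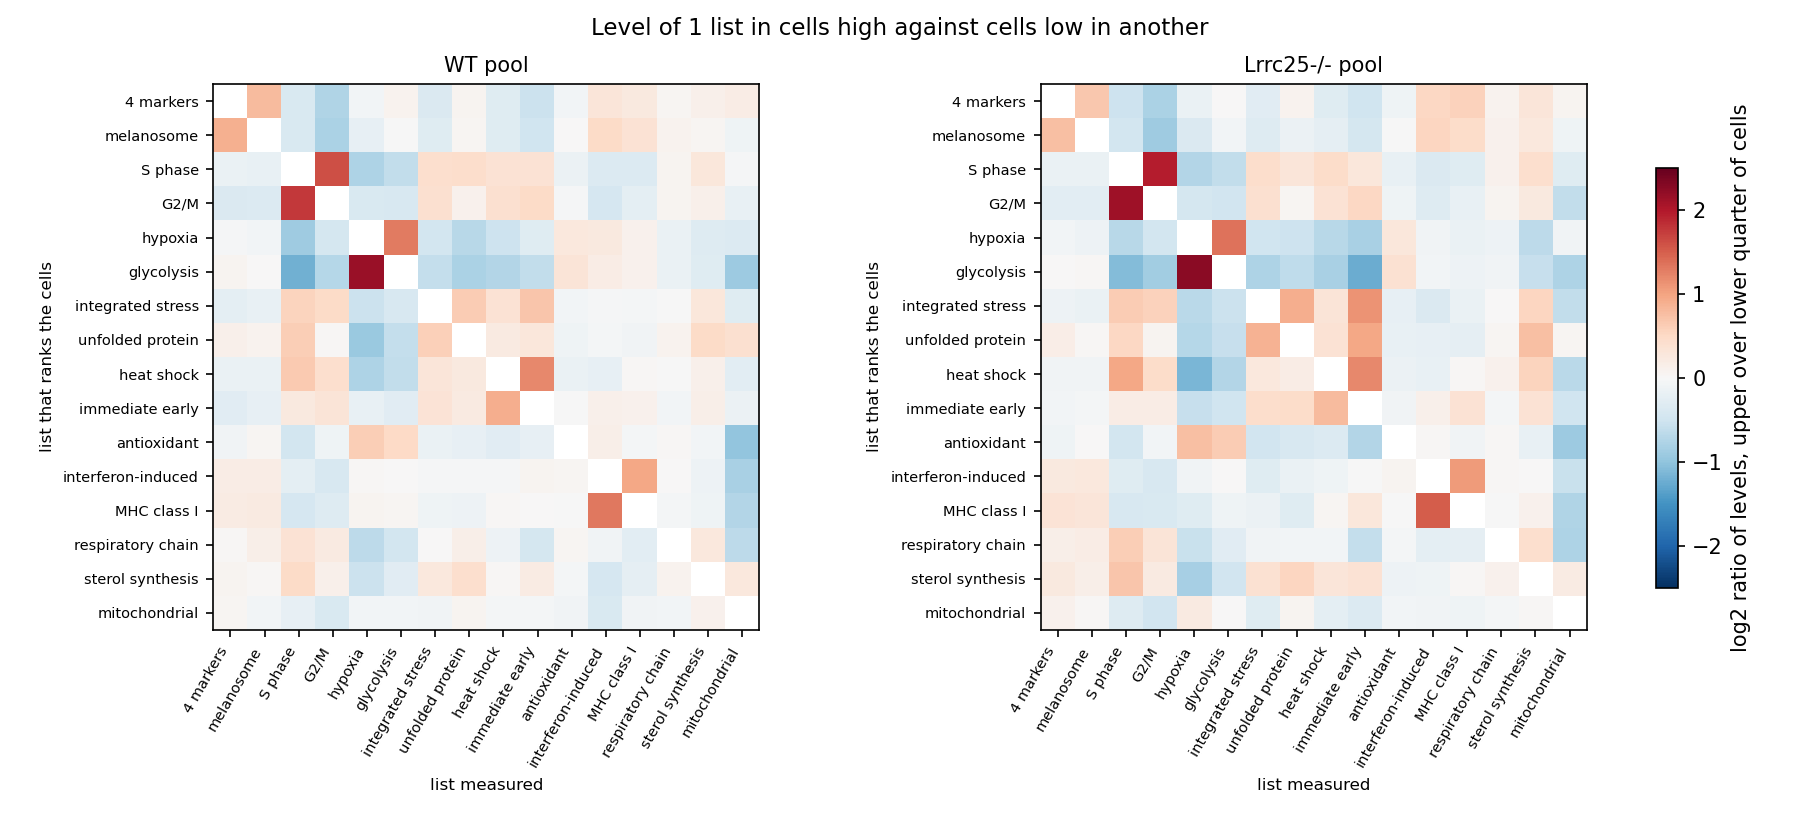
log2 ratio of the level of 1 gene list (columns) between the high and the low group of melanoma cells ranked by another list (rows), in the WT and the Lrrc25-/- pool (red higher, blue lower, diagonal left blank). The pairs hypoxia with glycolysis, S phase with G2/M, heat shock with immediate early and interferon-induced with MHC class I genes stand out in red in both pools.

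Between pools the hypoxia list differed little as a whole, with a median log2 fold of 0.06 (-0.05 after TMM scaling) and 2 of 16 genes called lower, beside 0.262% lower calls over all genes. Ankrd37, a HIF target of little known function, was at 29.6 CPM (28.3 to 30.9) in the WT and 15.99 CPM (14.7 to 17.3) in the Lrrc25-/- pool. Among cells without a C1q UMI its log2 fold was -0.17, against -0.85 in all. It was lower in macrophage-range barcodes too, at 33.4 and 21.99 CPM. Ddit4, an inhibitor of mTORC1 also induced by glucocorticoids and energy stress, was at 31.0 and 18.9 CPM. The abundant members were close, with Fam162a at 887 and 878 CPM, Higd1a at 866 and 887 CPM and Bnip3 at 268 and 239 CPM. Of 15 measured glycolysis genes, 1 was called higher, beside 2.16% of all genes. It was the hexokinase Hk2, at 103 and 163 CPM, and the list's median was -0.07. Ldha, the lactate dehydrogenase, was at 2719 and 2274 CPM.

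Heat shock transcripts varied between cells. The list took 0.68% of the UMIs of the median cell in both pools, with 5th and 95th percentiles of 0.36% and 1.90% in the WT and of 0.36% and 1.84% in the Lrrc25-/- pool. The small chaperone Hspb1 was among the most variable genes, with a ratio of variance to mean of 21.1 in the WT and 19.1 in the Lrrc25-/- pool, against medians of 1.06 and 1.07 over 4219 genes. It was seen in 32.0% and 25.1% of thinned melanoma cells, with a median of 0 UMIs in both pools and a 95th percentile of 14 and 7 UMIs, and in 21.2% and 14.5% of macrophage-range barcodes. Dnajb1, a partner of the Hsp70 chaperones, had ratios of 8.27 and 9.24.

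Heat-shock-high cells also carried immediate early genes, the first genes switched on by growth factors and stress, which tissue dissociation is known to induce. That list had log2 ratios of 1.21 and 1.20 between the groups. The transcription factor genes Fos and Jun were at 45.03 and 213 CPM and at 46.3 and 220.5 CPM in the WT pool. In the Lrrc25-/- pool Fos was at 39.7 and 229 CPM and Jun at 71.9 and 284 CPM. Cxcl10, a chemokine that attracts T cells, was at 96.3 and 518 CPM in the WT and at 105 and 488 CPM in the Lrrc25-/- pool. Macrophage-range barcodes held more Cxcl10 than melanoma cells as a whole, at 843 and 981 CPM against 256 and 266 CPM, and the part of their RNA in this pattern was not tested. None of the 13 heat shock genes passed 1.5-fold between pools, beside 2.42% of all measured genes. Their median was 0.01, with Hspb1 lower at 479 CPM in the WT and 329 CPM in the Lrrc25-/- pool. Of 16 measured immediate early genes 1 was called lower, Ier3, which macrophages also express, beside 0.262% lower calls over all genes. However, 12 of the 16 genes lay above 0, with a median of 0.23. The list summed to 1284 CPM in the WT and 1350 CPM in the Lrrc25-/- pool. It was also higher in macrophage-range barcodes, at 3864 and 4514 CPM, and in T cell-range barcodes, at 2222 and 3033 CPM.

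Both arms of the response to protein and amino acid stress stood somewhat higher in the Lrrc25-/- pool. In the integrated stress response the factor ATF4 raises genes for amino acid supply and, when stress lasts, Ddit3 (CHOP), Trib3 and Chac1. In the unfolded protein response, ER chaperones are raised. Of 14 measured genes of the first list 3 were called higher, beside 2.16% of all genes, and the median log2 fold was 0.24. Chac1, which degrades glutathione, was at 35.3 CPM in the WT and 65.2 CPM in the Lrrc25-/- pool. Ddit3 was at 62.3 and 110 CPM, and Trib3, a pseudokinase, at 31.2 and 48.5 CPM. Trib3 was no longer called after TMM scaling (0.51) or with 5 CPM added in place of 1 (0.56), and among cells without a C1q UMI neither Chac1 (0.54) nor Ddit3 (0.33) was. Atf4 was at 286 and 352 CPM, while the serine synthesis gene Phgdh, at 230 and 224 CPM, and the asparagine synthetase gene Asns, at 161 and 185 CPM, were closer. The integrated stress list summed to 1762 CPM in the WT and 2091 CPM in the Lrrc25-/- pool. Other cells of the libraries differed the same way. It was at 1510 and 1877 CPM in macrophage-range barcodes and at 1031 and 1233 CPM in T cell-range barcodes.

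All 14 genes of the unfolded protein list lay above 0, also after TMM scaling, with a median of 0.36. Under other settings Edem1 (lowest -0.37), Pdia6 (-0.16), Dnajc3 (-0.13) and Manf (-0.04) fell below 0. Only Herpud1, which acts in ER-associated degradation, was called, at 96.6 CPM in the WT and 148 CPM in the Lrrc25-/- pool. That call was lost after TMM scaling (0.50), by mean per-cell CPM (0.55), after thinning (0.56) and among cells without a C1q UMI (0.31). The chaperones Hspa5 (BiP), Calr and Hsp90b1 were at 338 and 485 CPM, 303 and 423 CPM, and 285 and 404 CPM. The same list was also higher in macrophage-range barcodes of the Lrrc25-/- pool, at 3868 against 3164 CPM, but not in T cell-range barcodes, at 2251 against 2317 CPM. Among melanoma cells without a C1q UMI, 263 in the WT and 184 in the Lrrc25-/- pool, the median was 0.12 for this list and 0.04 for the integrated stress list, both lower than over all melanoma cells. Within pools, cells high in integrated stress genes held more unfolded protein genes, with log2 ratios of 0.64 in the WT and 0.90 in the Lrrc25-/- pool.

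Transcripts for antigen presentation by MHC class I were low in the melanoma cells beside macrophage-range barcodes. The heavy chain gene H2-K1 was at 65.8 CPM in the WT and 79.4 CPM in the Lrrc25-/- pool, against 1042 and 1258 CPM in macrophage-range barcodes. H2-D1 was at 259 and 280 CPM, against 1612 and 1928 CPM. The peptide transporter genes Tap1 and Tap2 were at 11.1 and 13.4 CPM and at 6.12 and 8.39 CPM. The light chain gene B2m stood out by its level in the melanoma cells, at 1865 and 2081 CPM against 4515 and 4821 CPM. Low expression of these genes is known for B16 lines.

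None of the 8 measured class I genes and none of the 6 measured interferon-induced genes passed 1.5-fold between pools, beside 2.42% of all genes. The medians were 0.13 and 0.25, both above 0 also after TMM scaling. Cd274, which encodes PD-L1, was at 5.18 and 6.66 CPM. Cells differed within pools: the high group by interferon-induced genes held more class I transcripts, with log2 ratios of 0.96 and 1.06 and rho of 0.38 and 0.47. B2m was at 1408 and 2765 CPM in the low and high group of the WT pool, and at 1523 and 3139 CPM in the Lrrc25-/- pool. The same cells held more of the class II gene H2-Aa, at 21.4 and 55.0 CPM and at 34.2 and 136 CPM, a gene of antigen-presenting cells. Cells high in the melanosome list also held more class I transcripts, with log2 ratios of 0.36 and 0.45. Macrophage-range barcodes held 2110.5 and 2056 CPM of the melanosome list, against 4718 and 5514 CPM in melanoma cells. They held more class I transcripts than melanoma cells, at 8731 and 9656 CPM against 2612 and 2891 CPM. The part of their RNA in this relation was not tested.

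Respiratory and sterol genes of the nucleus were nearly alike between pools. None of 27 respiratory chain genes and none of 18 sterol synthesis genes passed 1.5-fold, beside 2.42% of all measured genes. The medians were -0.00 and -0.07. None of 13 measured antioxidant genes passed either, with a median of 0.03. Genes encoded by mitochondrial DNA, which supply core subunits of the same respiratory complexes, differed from the nuclear ones.

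All 11 measured mitochondrial protein genes were called higher in the Lrrc25-/- pool, and they made up 11 of the 99 calls. Their median log2 fold was 1.16. Among them mt-Co1, a subunit of cytochrome oxidase, was at 449 and 1001 CPM, and mt-Cytb, a subunit of complex III, at 1411 and 2468 CPM. The low gene mt-Nd3, of complex I, was at 5.89 and 32.6 CPM. For mt-Co1 other cells of the same libraries differed the same way by less: it was at 525 and 782 CPM in macrophage-range barcodes and at 637 and 1181 CPM in T cell-range barcodes (at least 2 Cd3 UMIs and at most 10 C1q UMIs). With only cells of at most 1% mitochondrial UMIs, 2208 in the WT and 700 in the Lrrc25-/- pool, the median was 0.70, with 7 of 9 measured genes called. Mitochondrial share is also a measure of cell quality, and its part in the other differences between pools was not tested; in those cells the melanosome median was 0.49 and that of the unfolded protein list 0.34.

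Outside the mitochondrial genome, the genes with the largest folds that were not also high in macrophage-range barcodes were Bnc2, Ppargc1a, Brca1, Met and Oca2. Bnc2, a zinc finger factor linked to skin pigmentation, was at 17.4 CPM in the WT and 44.9 CPM in the Lrrc25-/- pool. Ppargc1a encodes PGC-1α, a coactivator of mitochondrial biogenesis that MITF raises in pigmented human melanomas, and was at 111 CPM (108 to 113) and 267 CPM (262 to 273), against 11.6 and 10.8 CPM in macrophage-range barcodes. Brca1, a DNA repair gene, was at 21.7 and 51.0 CPM. All of these were called under all 13 settings tried.

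The same genes followed pigmentation within each pool. In the low and high group by the melanosome list, Ppargc1a was at 83.5 and 183 CPM in the WT and at 229 and 408 CPM in the Lrrc25-/- pool. Bnc2 was at 14.6 and 28.9 CPM and at 31.5 and 89.04 CPM, and Brca1 at 13.04 and 35.7 CPM and at 23.97 and 95.9 CPM. They were thus higher in pigment-rich cells of both pools. Bnc2, Ppargc1a and Met, but not Brca1, were also higher in cells rich in mitochondrial transcripts: Ppargc1a was at 86.3 and 184 CPM in the low and high group by that list in the WT and at 208 and 452 CPM in the Lrrc25-/- pool, and Brca1 at 28.3 and 22.05 CPM and at 57.5 and 50 CPM. The Ppargc1a promoter held CATGTG 160 bases before its start. Of the 65 higher genes with a promoter, 12 (18.5%) held the motif, against 9.80% of measured genes and 15.9% of all genes. Ankrd37, which was called lower, also held it, and Met did not.

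**Figure D4:**
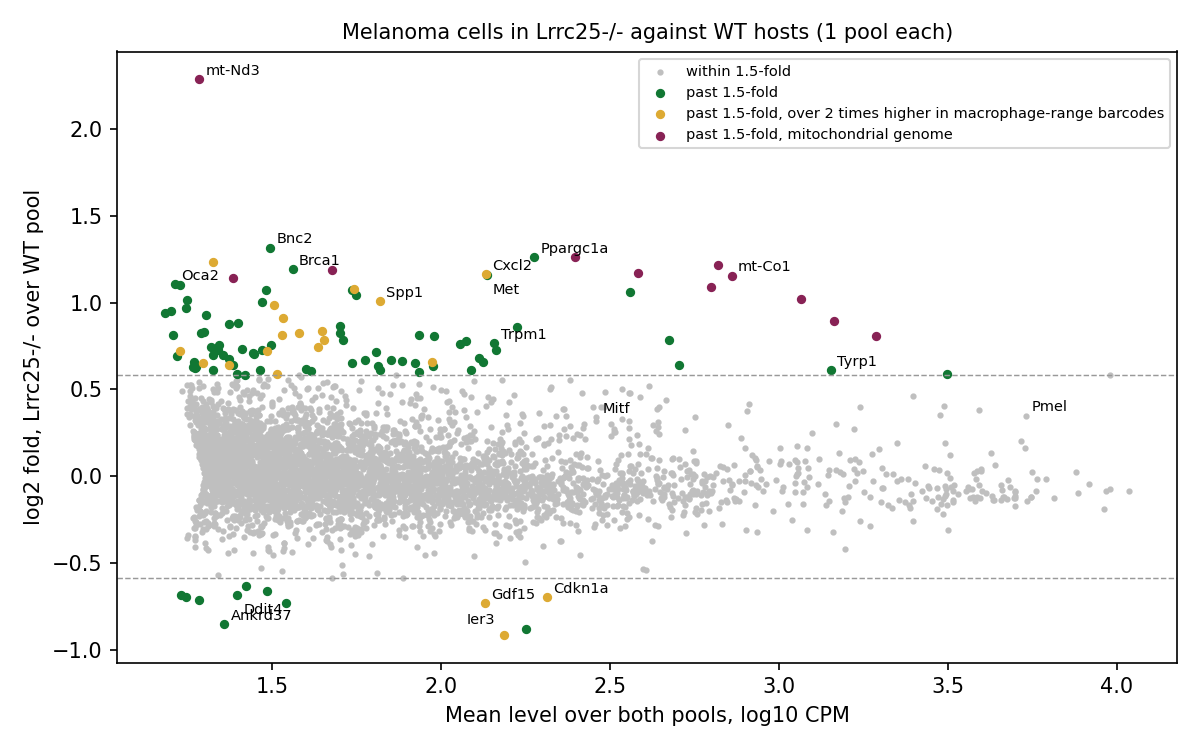
log2 fold of Lrrc25-/- over WT pool for 4584 measured genes in melanoma cells against their mean level (log10 CPM), with dashed lines near the 1.5-fold limit, genes past it in green, those over 2 times higher in macrophage-range barcodes in yellow and mitochondrial genes in purple. Calls are mostly upward (99 against 12), with the mitochondrial genes, Bnc2, Ppargc1a and Met among the largest.

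Genes higher in the Lrrc25-/- pool tended to be long. The 88 called nuclear genes spanned a median of 63.3 kb of genome (GENCODE M21), against 18.3 kb for all measured nuclear genes, and 43.2% of them were over 100 kb long, against 9.08%. The median log2 fold went up with span, from -0.05 for 1418 genes of up to 10 kb to 0.16 for 328 genes of 100 to 300 kb and 0.28 for 87 genes over 300 kb. Among those 87 genes, 16.1% were called higher. Bnc2, Met, Ppargc1a, Oca2 and Trpm1 are all over 100 kb, so for them the genotype pair and the length of the gene go together; this was not tested further.

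Few genes were lower in the Lrrc25-/- pool. Beside Ankrd37 and Ddit4 they included Rbm3, an RNA-binding protein induced by cold, at 43.7 CPM in the WT and 25.97 CPM in the Lrrc25-/- pool. Azgp1, a secreted glycoprotein, was at 24.1 and 14.3 CPM, and Txnip, which inhibits thioredoxin and responds to glucose, at 32.4 and 20.5 CPM. Klf3, a transcriptional repressor, was at 37.5 and 23.4 CPM, and Scfd2 at 21.9 and 13.2 CPM. Azgp1 and Ddit4 were called under all 13 settings tried for single genes, Rbm3, Txnip and Klf3 under 12, with smallest differences of -0.57, -0.55 and -0.58 on the log2 scale, and Scfd2 under 10, with a smallest difference of -0.47. Rbm3 was lower in macrophage-range barcodes of the Lrrc25-/- pool as well, at 35.2 and 19.4 CPM.

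Of 4584 measured genes, 374 had over 2 times the melanoma level in macrophage-range barcodes. Among them were 17 of the 99 higher and 3 of the 12 lower genes. All 4 measured class II genes were among the higher ones: H2-Aa was at 31.7 and 57.3 CPM in melanoma cells, against 1019 and 1191 CPM in macrophage-range barcodes, and Cd74, the invariant chain, at 72.6 and 115 CPM against 2464 and 2797 CPM. Cd74 was called under 10 of 13 settings, and its log2 fold ran from 0.45 to 1.36. The neutrophil-attracting chemokine Cxcl2 was at 83.2 and 188 CPM, against 4994 and 8937 CPM. Spp1 (osteopontin), made by tumor-associated macrophages, was at 43.5 and 88.5 CPM, against 550 and 1188 CPM. For these genes expression by the melanoma cells and RNA from other cells cannot be told apart by the levels alone.

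The 3 lower genes of this kind went against the macrophage difference. Cdkn1a was at 254 and 157 CPM in melanoma cells while macrophage-range barcodes had 506 and 527 CPM. Gdf15, a stress cytokine of the TGF-β family, was at 169 and 101 CPM against 1431 and 2165 CPM. Ier3, an early response gene tied to cell survival, was at 200 and 106 CPM against 436 and 598 CPM. The Ier3 call was lost among cells without a C1q UMI (-0.30) and the Gdf15 call by mean per-cell CPM (-0.38). In all 3, melanoma cells were lower in the Lrrc25-/- pool while macrophage-range barcodes were higher there.

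Among interferon-induced genes, Ifitm3, which blocks viral entry, was at 359.6 and 409 CPM, Bst2 (tetherin) at 295 and 353 CPM and the ubiquitin-like Isg15 at 67.3 and 71.4 CPM. All 3 were higher in macrophage-range barcodes, for Isg15 at 444 and 448 CPM. The listed secreted factors included 15 measured genes, with a median of 0.05. Of these, Spp1 and Cxcl1 were called higher and Gdf15 lower, all 3 with macrophage excess, beside 2.42% of all genes called. The cytokine Mif was at 5216 and 4790.5 CPM, and the galectin Lgals1 at 3508 and 2834 CPM. Both also stood lower in macrophage-range barcodes of the Lrrc25-/- pool, at 1596 and 1088 CPM and at 4455 and 3556 CPM.

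Cell cycle inhibitors and G1 regulators had 13 measured genes, with Plk2 called higher, Cdkn1a lower and a median of -0.14. Over all measured genes 2.42% were called in either direction. The kinase gene Cdk4 was at 399 and 362 CPM and Trp53, which encodes p53, at 131 and 109 CPM, while the G1 cyclin genes Ccnd1 and Ccnd2 were at 26.3 and 17.4 CPM and at 212 and 212 CPM. Of 6 measured apoptosis genes 1 was called, the survival gene Bcl2, an MITF target in melanocytes, at 16.5 and 25.7 CPM, a log2 fold of 0.61. Bcl2 was called under 10 of 13 settings and not after TMM scaling (0.51), with 5 CPM added (0.52) or after thinning (0.46). The pore-forming Bax was at 313 and 255 CPM. Of 9 measured genes of growth signalling and tumor suppression none was called, with Myc at 34.04 and 44.96 CPM.

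The main axes of variation were alike in both pools. In a principal component analysis of 1000 variable genes per pool, the loadings of the first 4 components matched one to one, with Pearson's r between pools of -0.90, 0.89, -0.91 and 0.87 over 757 shared genes (the sign of a component is arbitrary). The first, with 5.26% and 5.32% of the variance, set the cycling genes H2afz, Tuba1b and Hmgb2 against mitochondrial genes. The hypoxia gene Fam162a and Pros1, which encodes an anticoagulant protein, lay on the mitochondrial side in both pools. Aldoa was among the strongest loadings of that side in the WT pool only. Scores of this first component followed the UMI depth of the cells before thinning, with rho of 0.50 and -0.46. The second set mitochondrial genes against Gapdh, Aldoa and Higd1a.

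The third component was the pigment axis, with 2.19% and 2.24% of the variance. It set Pmel, Mlana, Mgll and Ptgds against Tubb5, Hmgb2, Ube2c and Tuba1b, and its rho with depth was 0.11 and -0.07. The hypoxia genes Higd1a and Fam162a, and Ero1l, lay on the side of Tubb5, opposite Pmel, in both pools. The fourth set mitochondrial genes against Phlda1, Dnajb1 and Hspb1. Beside mitochondrial genes, Hspb1 and Dnajb1, and leaving out predicted genes and genes with macrophage excess, the genes with a high ratio of variance to mean included Malat1, a nuclear RNA (42.9 and 18.7), Gapdh (14.1 and 13.9), Mt1 (15.1 and 10.5), Pros1 (8.97 and 9.58), Tmsb10, an actin monomer binder (8.77 and 9.22), and Ptgds (8.08 and 9.11). Across genes, the levels in both pools ranked nearly alike, with rho of 0.98 over 4584 measured genes, which are not independent.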

How the data were processed

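Single-cell RNA-seq was made with the SeekOne DD 3' kit, per the labels' protocols, so a UMI marks the 3' end of a transcript. The deposited values are UMI counts per gene and barcode, whole numbers that the authors left without normalization. Reads were placed on mm10, per the submitters' processing notes. Which aligner, counter and cell caller were used is not given in the sources used here. Of 32285 gene identifiers, 32235 were in GENCODE M21.

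Members were chosen by the thresholds in the opening, and the members, gene lists and rules were chosen with earlier results of these data known. For each pool the members' UMIs were added up per gene and divided by their total to give CPM. No doublet caller was run; the rule removed 661 WT-pool and 594 Lrrc25-/--pool barcodes with 20 or more marker UMIs for their immune UMIs, and the 5% of cells with the most UMIs were left out as an alternative. With 1 pool per group there was no test. Cells with equal list UMIs were ordered at random to form low and high groups, and the values of Selenbp1, Espn, Ccnd2, Cxcl10 and H2-Aa in such groups come from a second random order. Phases used scanpy 1.11.5 list scores, and TMM factors edgeR 4.0.16 (R 4.3.3). Python was 3.11.15. The size rule and phase calls were tested on simulated data. Named genes were the 4 markers, Lrrc25, per list up to 4 past the size rule and up to 4 others by CPM, the 12 largest folds each way without predicted genes (7 of the calls) and genes with macrophage excess, the 15 most variable genes and the 8 highest and lowest loadings; other genes named were chosen after their values were seen.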

Additional observations from a re-analysis of the deposited data

How the results depend on the processing

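No paired analysis was possible because each group is 1 pool, and no replicate could be left out for the same reason. Against 99 higher and 12 lower genes, TMM scaling gave 65 and 23, a mean of per-cell CPM 232 higher, a CPM minimum of 5 gave 222 and 32, no CPM minimum 396 and 61, cells with a C1q sum of 0 gave 386 and 99, and thinning gave 25 lower. The other settings kept both counts within 1.5 times, including cells with 10000 or more UMIs (95 and 14) and cells with at most 1% mitochondrial UMIs (77 and 14), both chosen after seeing the data. The cause of these shifts was not tested, except that the C1q cut left few cells. The share of melanoma cells was 28.5% and 14.4% with 10 marker UMIs, 26.1% and 9.79% with 50, and 2.68% and 1.496% with a C1q sum of 0, in the WT and Lrrc25-/- pool.

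With phase called by shares of UMIs, the WT pool had 28.0% in S and 31.5% in G2/M, and the Lrrc25-/- pool 28.1% in G2/M. WT-pool G2/M was 21.3% without the 5% of cells with the most UMIs and 21.4% with 50 marker UMIs, and Lrrc25-/--pool S was 29.9% at 2000 UMIs. Relations between lists kept their direction. At 2000 UMIs and with larger high and low groups of cells the log2 ratios in the WT pool were -0.68 and -0.65 (melanosome, G2/M), 1.18 and 1.19 (hypoxia, glycolysis), -0.74 and -0.79 (hypoxia, S), 1.08 and 1.06 (heat shock, immediate early) and 0.77 and 0.81 (interferon, class I). In the Lrrc25-/- pool they were -0.56 and -0.82, 1.17 and 1.25, 1.05 and 1.02, and 0.80 and 0.90 for the pairs other than hypoxia with S. The macrophage list median changed sign, to -0.045 with 10000 or more UMIs and -0.12 with at most 1% mitochondrial UMIs. The Schwann cell list median did too, to 0.21 by mean per-cell CPM and 0.051 with a CPM minimum of 5 or none. Of 323 list medians under alternatives, 94 moved beyond the tolerance used, 224 did not and 5 changed sign. A sign change was counted only where the main median was not close to 0, so that of the hypoxia list after TMM scaling is not among the 5. Of the values of single genes, 414 moved beyond counting error and 1026 did not, and none changed sign past the size rule. Low genes and shallow cells limit what this depth can show.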
